A study of Arabidopsis thaliana with 30 samples.

Results

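The comparison of pifq with the wild type after 24 h of far-red-enriched light rested on 6 of the 30 arrays of the series, the 3 titled for pifq and the 3 titled for the wild type at that time, chosen by their titles and not by any measured value. Arabidopsis pifq is 1 mutant line that carries the mutations pif1, pif3, pif4 and pif5, and the wild type was Columbia. Whole seedlings of both genotypes were stratified for 5 days at 4 °C in the dark and grown without sucrose for 2 days at 21 °C in white light of 19 µmol/m2/s, with a ratio of red to far-red light (R/FR) of 6.48 (the group WL0). They then stayed in the same white light with added far-red, at an R/FR of 0.006, for 24 h (FR24), or in white light alone for 24 h (WL24). Groups harvested after 1 h (FR1) and 3 h (FR3) of far-red, with WL0 and WL24, served to show where FR24 stood apart. Each group held 3 arrays, and per the labels its replicates were grown and extracted separately.

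Phytochromes are the red and far-red light receptors of plants. Far-red-rich light, as under a canopy, returns them to their inactive form, and the PHYTOCHROME INTERACTING FACTORS (PIFs), transcription factors that active phytochrome removes, can then accumulate and act on their target genes. In seedlings these factors promote elongation of the stem and restrain the making of chlorophyll, and PIF1 also restrains germination of seeds in the dark. Shade-induced genes of auxin signalling and of cell wall loosening are among the best-known responses to low R/FR.

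The genotype could not be checked at the mutated genes, since the annotation given assigned a probe set to none of the 10 listed PIF and related genes. Of the 22746 probe sets tested, 13436 (59.1%) had exactly 1 locus and 1551 of these a gene symbol, so many familiar genes have no value below. Arrays of 1 genotype at FR24 correlated at 0.9961 to 0.9973 over all probe sets, and arrays of different genotypes at 0.9930 to 0.9941. The first principal component of the 6 arrays held 49.4% of the variance and separated the genotypes, and on the second (16.2%) pifq replicate 2 lay farthest out. Of 20 tissue markers listed, 8 had a probe set. The green-tissue genes LHCB4.1 and RCA stood among the brightest probe sets in both genotypes, the root hair genes EXPA7 and EXPA18 at log2 levels of 6.74 to 7.40, and the stomatal genes SPCH, MUTE and FAMA low, at 3.73 to 5.05, with STOMAGEN at 9.96 to 10.11. None of the 8 was called different between the genotypes by limma, and none of the 5 markers listed for seed remnants was measured.

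Seedlings of pifq held more transcript of QQS, of the late embryo genes LEA, LEA4-5 and M17 and of the chlorophyll enzyme gene PORB than the wild type at FR24, and less of a sucrose synthesis gene, the trichome repressor TRY and several genes of amino acid breakdown. Of the probe sets tested, 1891 (8.31%) passed an adjusted p of 0.05 and are named called here. In pifq 1016 of them (4.47%) were higher and 875 (3.85%) lower. Most differences were small, with a median size of 0.39 on the log2 scale among the called probe sets, and the median over all probe sets was -0.02. A difference of at least 2-fold was found for 78 probe sets (0.343%) that were higher and 21 (0.0923%) that were lower, and 13 and 4 of these passed 4-fold. Among loci that could be named, just inside the 2-fold limit lay AT5G14450, at a log2 difference of 1.004, and scpl35 at 1.005, and just outside it AT4G36700 at 0.993. With 3 arrays against 3 and no test, 2670 probe sets (11.7%) had all pifq arrays above all wild-type arrays and 3126 (13.7%) the reverse, so a lack of overlap alone is common here. In whole seedlings, more cells of a type and more transcript per cell cannot be told apart.

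**Figure D1:**
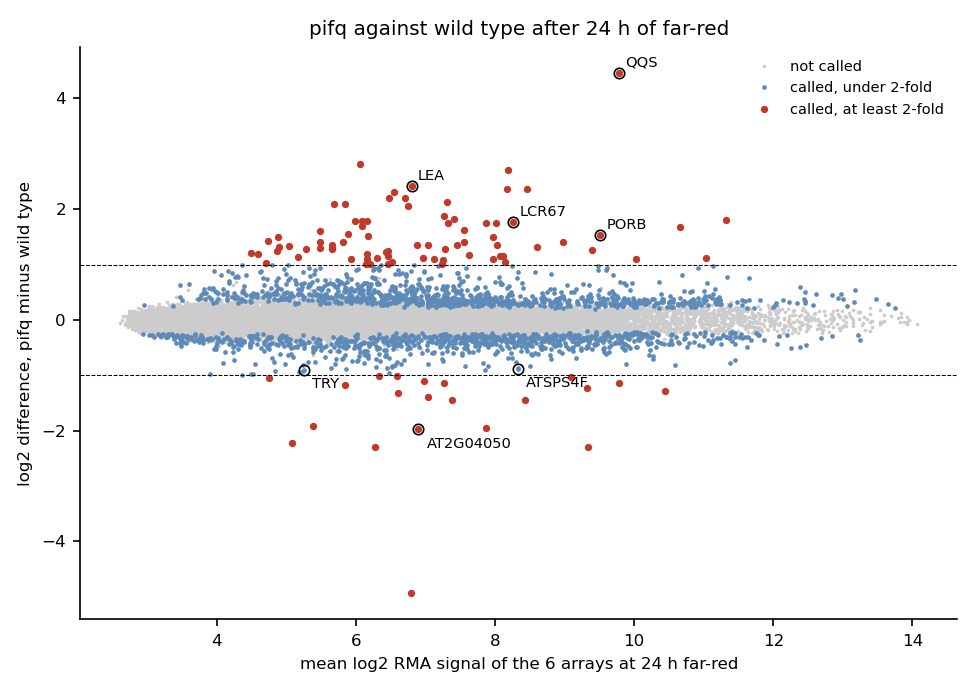
Log2 difference between pifq and the wild type at 24 h of far-red (y axis) against the mean log2 RMA signal of the 6 arrays (x axis), 1 point per probe set, with dashed lines at 2-fold. The called probe sets of at least 2-fold are 78 above and 21 below 0, with QQS at 4.46, and the lowest point, at -4.94, is a probe set to which the annotation assigns no gene.

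QQS was the named gene with the greatest rise. This gene occurs only in Arabidopsis and is known for its effect on the division of carbon and nitrogen between starch and protein. Its log2 signal was 7.58, 7.54 and 7.51 on the wild-type arrays and 11.93, 12.06 and 12.03 on the pifq arrays. The 2 groups lay far apart, with a difference of 4.46 ± 0.10 (SE) on the log2 scale, or 22.0-fold (adjusted p = 4.41e-24). The difference was of similar size in every other condition, at 4.84 in WL0, 4.61 in FR1, 4.72 in FR3 and 4.42 in WL24, and the difference between FR24 and WL24 was 0.04 ± 0.15 (adjusted p = 0.926). QQS was thus high in pifq before far-red was given.

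Late embryogenesis abundant (LEA) proteins, storage proteins and their companions accumulate in the drying seed, and their transcripts normally fall as a seedling establishes. Of 19 listed seed storage and late embryo genes only 2 were measured by probe sets that could be named. Both were called higher in pifq, against 4.47% of all probe sets. LEA4-5, which encodes a LEA protein, read 8.20, 8.47 and 8.17 in the wild type and 9.75, 9.71 and 9.59 in pifq, a difference of 1.40 ± 0.13 (adjusted p = 9.87e-09). AT3G01570 read 5.13, 5.37 and 5.67 against 7.82, 7.60 and 7.69, a difference of 2.31 ± 0.19 (adjusted p = 8.65e-10). No array of 1 genotype reached the range of the other for either gene. In the wild type neither gene fell from WL0 to WL24. LEA4-5 rose by 2.14 (adjusted p = 2.84e-14) and AT3G01570 by 0.88 (adjusted p = 0.000314).

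The 12 greatest rises among genes with a symbol were picked by size among called genes whose arrays did not overlap. That lack of overlap was thus set by the choice. These genes were not picked from a list of functions, no enrichment was tested on them, and they included the following. The dehydrin gene LEA (AT2G21490) read 5.45, 5.46 and 5.87 in the wild type and 8.09, 7.89 and 8.04 in pifq, 5.34-fold higher (log2 2.42 ± 0.18, adjusted p = 4.22e-11). ATOEP16-2, which encodes a plastid envelope channel protein abundant in seeds, read 5.06, 5.67 and 5.40 against 7.75, 7.43 and 7.57, 4.62-fold higher (log2 2.21 ± 0.18, adjusted p = 2.63e-10). PAP85, which encodes a vicilin-like storage protein, read 5.38, 5.52 and 5.92 against 7.56, 8.0 and 7.86, 4.58-fold higher (log2 2.19 ± 0.23, adjusted p = 3.85e-08). M17 and M10, a pair of late embryo genes, rose by 2.06 ± 0.33 (adjusted p = 7.76e-05) and 1.40 ± 0.22 (adjusted p = 4.8e-05), and LEA18, another LEA gene, by 0.94 ± 0.14 (adjusted p = 4.17e-05). ICL, which encodes isocitrate lyase of the glyoxylate cycle that turns seed oil into sugar, was bright in both genotypes and rose by 0.94 ± 0.13 (adjusted p = 7.31e-06). LCR67, which encodes a plant defensin, rose 3.4-fold (log2 1.77 ± 0.20, adjusted p = 2.13e-07), and scpl35, which encodes a serine carboxypeptidase-like protein, 2.01-fold (log2 1.00 ± 0.12, adjusted p = 6.35e-07).

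The greatest rises among loci without a symbol were of like size. AT5G66780 read 6.34, 6.88 and 7.26 in the wild type and 9.71, 9.41 and 9.52 in pifq, 6.56-fold higher (log2 2.71 ± 0.19, adjusted p = 2.01e-11). AT1G04560 rose by 2.37 ± 0.17 (adjusted p = 3.37e-11) and AT3G15670 by 2.36 ± 0.21 (adjusted p = 3.26e-09). These loci too were chosen among those whose arrays did not overlap.

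**Figure D2:**
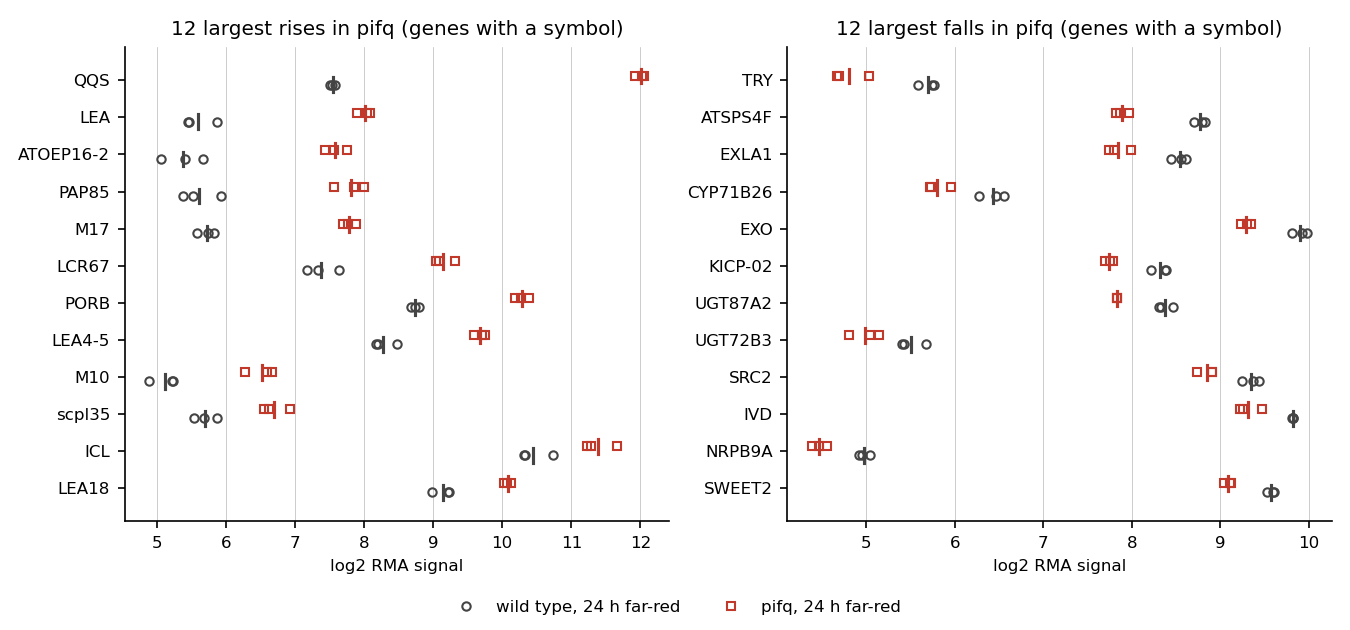
Log2 RMA signal (x axis) of the 12 greatest rises (left) and the 12 greatest falls (right) among called genes with a symbol whose arrays did not overlap, each symbol 1 array and each bar a mean of 3. QQS stands apart at the top, from 7.51 to 7.58 in the wild type and 11.93 to 12.06 in pifq, and no fall is as great as the smallest rise shown, LEA18 at 0.94.

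LEA4-5, LEA and LEA18 were already higher in pifq before far-red. LEA4-5 differed by 2.39 in WL0, 1.32 in FR1, 0.72 in FR3 and 0.71 in WL24, and LEA (AT2G21490) by 2.45, 1.85, 1.50 and 1.74 in the same order. LEA18 differed by 2.47 in WL0 and by 0.43 in WL24, where it was not called (adjusted p = 0.0607). The difference between FR24 and WL24 was not called for LEA18 (0.51 ± 0.20, adjusted p = 0.176) or LEA (0.68 ± 0.25, adjusted p = 0.134). Also called higher in WL0 were AT5G66780, AT1G04560, AT3G15670, AT3G01570, ATOEP16-2, PAP85, M17, M10 and LCR67, by 1.78 (LCR67) to 3.05 (M17). At WL24 the same genes were called higher by 1.12 (M17) to 1.88 (AT5G66780). For none of them was the difference between FR24 and WL24 called (adjusted p from 0.0671 to 0.702). ICL differed by 0.12 in WL0 and was not called there (adjusted p = 0.83). In the wild type LEA4-5 had a mean level of 7.02 ± 0.25 (SD, n = 3) in WL0 and 9.16 ± 0.27 in WL24, but 8.28 ± 0.16 in FR24, while in pifq it lay at 9.41 ± 0.14, 9.87 ± 0.13 and 9.68 ± 0.08. The wild type thus carried less LEA4-5 transcript in far-red than in white light of equal duration (log2 -0.88, adjusted p = 7.79e-06), while in pifq the difference was -0.19 (adjusted p = 0.379). The difference between these responses was 0.69 ± 0.19 (adjusted p = 0.035). It was not called without 1 array in turn for 8 of the 12 arrays concerned (WT FR24 replicates 1 and 3, pifq FR24 replicates 1 and 2, WT WL24 replicates 2 and 3, and pifq WL24 replicates 1 and 2), with adjusted p from 0.053 to 0.101. In the wild type the level in far-red was also called lower than in white light for AT5G66780 (log2 -0.99), AT3G15670 (-0.82), AT1G04560 (-0.80), AT3G01570 (-0.75), ATOEP16-2 (-0.64), LEA18 (-0.55) and LEA (-0.54), with adjusted p from 0.000201 to 0.0236. It was not called for PAP85 (log2 -0.03, adjusted p = 0.942), M17 (-0.02, 0.98), M10 (-0.42, 0.181), LCR67 (-0.31, 0.295) or ICL (0.14, 0.506). These responses share the wild-type FR24 arrays with the genotype difference. From WL0 to WL24 the wild type rose in LEA18 (log2 2.87), AT3G15670 (1.55), AT5G66780 (1.51), AT1G04560 (1.08), M17 (0.89), ATOEP16-2 (0.78) and LEA (0.73), each called. No change was called for M10 (0.36), PAP85 (0.26) or LCR67 (0.03), and ICL fell by 2.32.

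PORB encodes a protochlorophyllide oxidoreductase, the light-dependent enzyme of chlorophyll synthesis. Its signal was 8.68, 8.74 and 8.80 in the wild type and 10.39, 10.27 and 10.18 in pifq at FR24, 2.9-fold higher (log2 1.54 ± 0.10, adjusted p = 4.05e-12). At WL24 it read 10.45, 10.27 and 10.07 in the wild type and 10.54, 10.40 and 10.63 in pifq, a difference of 0.26 ± 0.10 that was not called (adjusted p = 0.111). Only the wild-type FR24 arrays were thus low among these 12. The difference between the FR24 and WL24 values was 1.28 ± 0.14 (adjusted p = 9.47e-07). PORB showed no called difference in WL0 (log2 -0.08, adjusted p = 0.864), with 0.11 in FR1 and -0.20 in FR3.

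Other genes of chlorophyll synthesis and light capture differed less. Of 8 measured among 35 listed chlorophyll and carotenoid genes, 3 were called higher and 1 lower, with a median of 0.20. Over all probe sets 8.31% were called. HEME2, which encodes uroporphyrinogen decarboxylase, rose by 0.43 ± 0.07 (adjusted p = 0.000189) and HEME1, for the same reaction, by 0.28 ± 0.08 (adjusted p = 0.0389). LYC, which encodes lycopene cyclase of carotenoid synthesis, fell by 0.29 (adjusted p = 0.0218). The HEME1 call was lost without any 1 array other than pifq replicate 2 (adjusted p from 0.0651 to 0.187), and the LYC call without WT replicate 2 (0.153), pifq replicate 2 (0.0937) or pifq replicate 3 (0.0985).

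Photosystem and antenna genes, with 7 measured of 45 listed, had 2 called higher, 1 called lower and a median of 0.11, against 8.31% of all probe sets called. LHCB4.2, which encodes a minor antenna protein of photosystem II, read 12.55, 12.64 and 12.65 in the wild type and 13.08, 13.12 and 12.98 in pifq, a difference of 0.44 ± 0.07 (adjusted p = 0.000125). Its relative LHCB4.3 went the other way, with 10.02, 10.06 and 9.73 against 9.64, 9.38 and 9.53, a fall of 0.42 (adjusted p = 0.0172). The arrays of the genotypes did not overlap in either gene. PSAE-1, a subunit of photosystem I, rose by 0.24 ± 0.07 (adjusted p = 0.0181). The LHCB4.3 call was lost without WT replicate 1 (0.082), WT replicate 2 (0.1) or pifq replicate 2 (0.0998), and that of PSAE-1 without WT replicate 2 (0.0521), WT replicate 3 (0.0596), pifq replicate 1 (0.0997) or pifq replicate 3 (0.0798). Of 3 carbon fixation genes measured, SBPASE, an enzyme of the Calvin cycle, fell by 0.32 (adjusted p = 0.00188).

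Shade-response, auxin and wall-loosening genes are the groups best known as targets of low R/FR. They had 1 of 3, 2 of 14 and 4 of 14 measured members called after 24 h of far-red, against 8.31% of all probe sets. Of 3 shade markers measured among 15 listed, HAT2 alone was called, higher in pifq, and the median was 0.20. HAT2, which encodes a homeodomain-leucine zipper factor induced by auxin, read 6.96, 6.58 and 6.79 in the wild type and 7.41, 7.31 and 7.21 in pifq, a difference of 0.53 ± 0.09 (adjusted p = 0.000164). IAA29, an auxin-induced repressor of auxin signalling, read 7.65, 7.81 and 7.46 against 8.06, 7.74 and 7.74, with overlapping arrays and a difference of 0.20 ± 0.13 (adjusted p = 0.371). Of 14 measured among 50 listed auxin genes, 2 were called higher and none lower, with a median of 0.12. They were GH3.9 at 0.49 ± 0.14 (adjusted p = 0.0195) and GH3.3 at 0.37 ± 0.12 (adjusted p = 0.0385), both of the family that joins auxin or jasmonate to amino acids. Both were dim at FR24, with wild-type means of 4.01 and 3.96. The GH3.9 call was lost without WT replicate 1 (0.0773), WT replicate 3 (0.0708) or pifq replicate 1 (0.136), and the GH3.3 call without any 1 array other than pifq replicate 2 (0.0705 to 0.199).

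Of 14 measured among 35 wall-loosening genes, 3 were called higher and 1 lower, with a median of 0.07. The expansin gene EXPA8 read 8.08, 8.34 and 8.01 in the wild type and 9.06, 9.0 and 8.97 in pifq, a difference of 0.87 ± 0.11 (adjusted p = 1.38e-06). Expansins loosen cell walls as cells grow, and EXPB3 and EXPA15 of the same superfamily rose by 0.66 ± 0.12 (adjusted p = 0.000252) and 0.42 ± 0.09 (adjusted p = 0.00153). The expansin-like gene EXLA1 fell instead, from 8.61, 8.44 and 8.55 to 7.80, 7.74 and 7.99, by 0.69 (adjusted p = 6.73e-05). EXLA1 was called lower in pifq in WL24 as well (log2 -0.57, adjusted p = 0.00103). The same held in WL0, before far-red (-0.46, adjusted p = 0.0239), in FR1 (-0.65) and in FR3 (-0.64). P1R3 rose by 0.90 ± 0.14 (adjusted p = 3.68e-05).

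**Figure D3:**
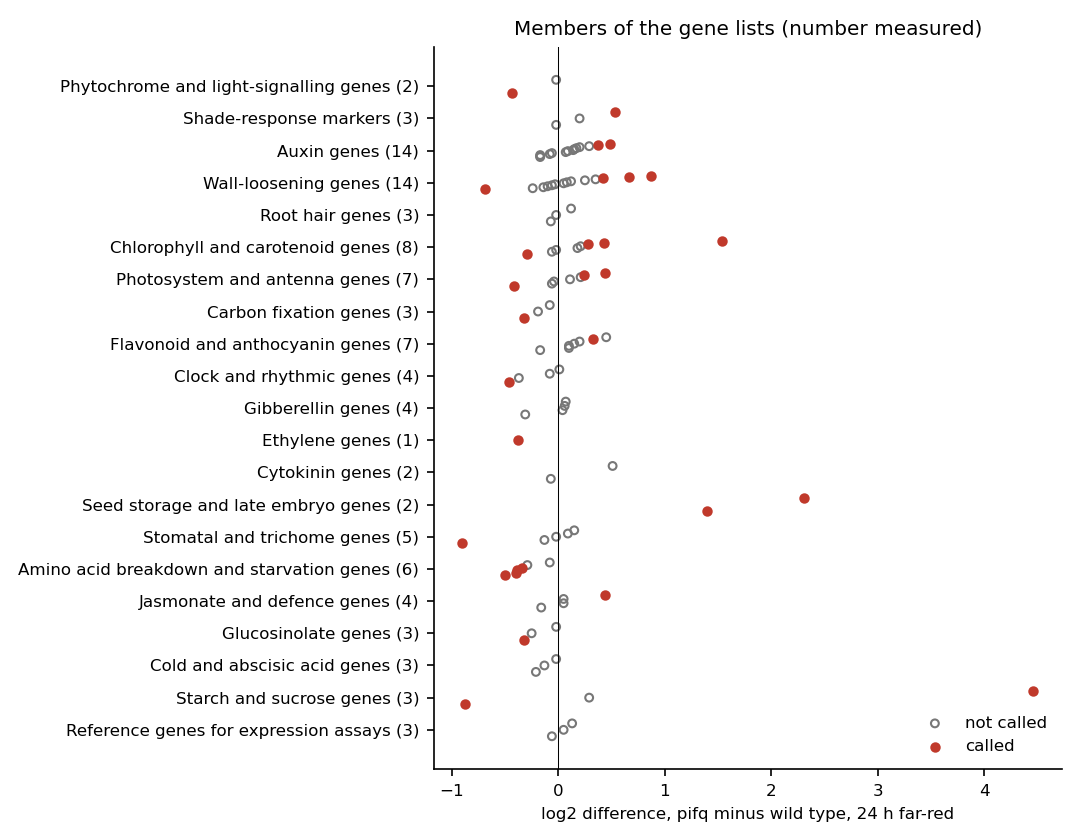
Log2 difference between pifq and the wild type at 24 h of far-red (x axis) for every measured gene of the 21 lists with a probe set, 1 row per list, filled where called. Most members lie near 0, both seed genes lie to the right at 1.40 and 2.31, and 4 of the 6 genes of amino acid breakdown are called on the left.

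Among genes with a symbol, the greatest falls in pifq at FR24 were smaller than the greatest rises. TRY, a MYB protein that represses the making of leaf hairs, read 5.77, 5.74 and 5.59 in the wild type and 5.03, 4.69 and 4.67 in pifq, 1.87-fold lower (log2 -0.90 ± 0.14, adjusted p = 5.56e-05). ATSPS4F, which encodes a sucrose phosphate synthase, read 8.70, 8.79 and 8.82 against 7.87, 7.82 and 7.97, 1.84-fold lower (log2 -0.88 ± 0.14, adjusted p = 5.43e-05). A lack of overlap was a condition of the choice of these falls too. At WL24 the genotypes lay close together in both genes, with differences of 0.09 (adjusted p = 0.772) and 0.01 (adjusted p = 0.977). Before far-red, in WL0, ATSPS4F was called higher in pifq, by 0.57 (adjusted p = 0.0233). TRY differed there by 0.40 and was not called (adjusted p = 0.193). The cytochrome P450 gene CYP71B26 fell by 0.62 (adjusted p = 0.000818), and EXO, a gene induced by brassinosteroids, fell by 0.61 (adjusted p = 2.55e-05). The other falls with a symbol were those of KICP-02, which encodes a kinesin, at -0.57, the glycosyltransferase genes UGT87A2 and UGT72B3 at -0.54 and -0.51, SRC2, which encodes a C2-domain protein, at -0.50, NRPB9A, a subunit of RNA polymerase II, at -0.50, IVD at -0.50 and the sugar transporter gene SWEET2 at -0.49, with adjusted p from 0.000171 to 0.00343. Of these NRPB9A was also lower in the other 4 conditions, by 0.43 (WL24) to 0.88 (FR1).

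Of 6 measured genes of amino acid breakdown and starvation, 4 were called lower and none higher, and the median was -0.36. Over all probe sets 3.85% were called lower. IVD, which encodes isovaleryl-CoA dehydrogenase of leucine breakdown, read 9.82, 9.81 and 9.82 in the wild type and 9.25, 9.22 and 9.47 in pifq (adjusted p = 0.00215). MCCA and MCCB, both subunits of methylcrotonyl-CoA carboxylase of the same pathway, fell by 0.39 (adjusted p = 0.00965) and 0.34 (adjusted p = 0.0322), and MGL, methionine gamma-lyase, fell by 0.40 (adjusted p = 0.00673). The arrays of the genotypes did not overlap in any of the 4. D2HGDH, at -0.29 (adjusted p = 0.0512), and ETFQO, at -0.08 (adjusted p = 0.716), were not called. The MCCA call was lost without WT replicate 3 (0.0543) or pifq replicate 1 (0.0837), and that of MCCB without WT replicates 1 (0.0803) or 3 (0.112) or pifq replicates 1 (0.0908) or 2 (0.117). At WL24 only MGL of the 6 was called, lower by 0.50 (adjusted p = 0.000914), and at FR3 IVD, MCCA, MCCB and MGL lay 0.68, 0.56, 0.74 and 1.88 below the wild type. In WL0, before far-red, MCCA was called lower by 0.62 (adjusted p = 0.000173). IVD, MCCB and MGL were not called there (adjusted p from 0.0996 to 0.601).

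Light-signalling and hormone genes were sparsely measured, and over all probe sets 8.31% were called at FR24. HYH, a bZIP factor related to HY5 that acts in light responses, fell by 0.43 (adjusted p = 0.00271), while FHL, a partner of phytochrome A, differed by -0.02 (adjusted p = 0.951). EIN3, the central transcription factor of ethylene signalling and the single ethylene gene measured, fell by 0.38 (adjusted p = 0.00331). GI, a clock gene, was the only call among 4 clock genes, and read 7.61, 7.63 and 8.18 in the wild type and 7.53, 7.36 and 7.14 in pifq (log2 -0.46 ± 0.13, adjusted p = 0.0215). That value rested in part on WT replicate 3, without which it was -0.28 (adjusted p = 0.2), and it was not called without pifq replicate 2 (0.0505) or 3 (0.134) either. The cytokinin response regulator RR16 differed by 0.51 (adjusted p = 0.0594), or by 0.67 without pifq replicate 2 (adjusted p = 0.0225), and ARR15 by -0.07. Of the 4 gibberellin genes none was called, with GID1C, a receptor, at -0.31 (adjusted p = 0.105) and SLY1, which takes part in the breakdown of DELLA repressors, at 0.07 (adjusted p = 0.668). None of 13 brassinosteroid genes listed was measured.

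In secondary metabolism and defence, UGT78D1, a flavonol glycosyltransferase, was the only call among 7 flavonoid genes (log2 0.33 ± 0.08, adjusted p = 0.00816). A member of that list that was not called reached 0.45. PDF1.2b, a defensin, was the only call among 4 jasmonate and defence genes (log2 0.44 ± 0.12, adjusted p = 0.0128). Over all probe sets 8.31% were called. The UGT78D1 call was lost without pifq replicate 1 (0.0643), and the PDF1.2b call without WT replicate 2 (0.0825) or pifq replicate 3 (0.0831). AT2G31790, from the glucosinolate list of 3 measured genes, fell by 0.32 (adjusted p = 0.00106). None of 3 root hair, 3 cold and abscisic acid and 3 reference genes was called. Among them COR47, a cold-induced dehydrin, differed by -0.21 (adjusted p = 0.304), COR15A by -0.13 (adjusted p = 0.526), the root hair expansin EXPA18 by 0.12 (adjusted p = 0.554), the reference gene AT4G34270 by 0.13 (adjusted p = 0.292) and PEX4 by -0.06 (adjusted p = 0.738). Among 5 stomatal and trichome genes TRY alone was called, and of the 3 starch and sucrose genes APL3, at 0.29, was the one not called.

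The greatest falls with a locus but no symbol belonged to AT2G04050, AT1G78720 and AT2G41730. AT2G04050 read 7.43, 7.76 and 8.44 in the wild type and 6.54, 5.18 and 6.01 in pifq, 3.92-fold lower (log2 -1.97 ± 0.28, adjusted p = 1.47e-05). The arrays spread widely within each genotype, and these loci were again chosen among those without overlap. AT1G78720 fell by 1.18 (adjusted p = 9.5e-07) and AT2G41730 fell by 1.15 (adjusted p = 1.65e-05).

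Whether the genotype difference depended on light was tested by setting the FR24 difference against the WL24 difference, which used 6 other arrays. At WL24 a similar number of probe sets was called, 1957 (8.6%), with 978 higher and 979 lower in pifq. The difference between both comparisons was called for 854 probe sets (3.75%), 506 of them (2.22%) more positive and 348 (1.53%) more negative in far-red. Of the 1016 probe sets called higher at FR24, 263 were also called higher at WL24, against 4.3% of all probe sets. These were 25.9% of the FR24 calls and 26.9% of the WL24 calls. Another 61 of the 1016 were called lower at WL24, against 4.3% of all probe sets. Of the 875 called lower at FR24, 158 were called lower at WL24, 18.1% and 16.1% of the calls, against 4.3% of all probe sets. Another 15 of the 875 were called higher at WL24, against 4.3% of all probe sets.

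HAT2, EXPA8 and P1R3 changed the sign of their genotype difference between the lights. HAT2 lay 0.75 below the wild type at WL24 (log2 -0.75 ± 0.09, adjusted p = 2.07e-06) and 0.53 above it at FR24, a difference between the 2 of 1.29 ± 0.13 (adjusted p = 1.32e-07). At WL24 its arrays read 7.39, 7.41 and 7.55 in the wild type and 6.78, 6.75 and 6.56 in pifq, the reverse order of FR24. EXPA8 went from -0.82 ± 0.11 to 0.87 ± 0.11, a difference of 1.69 ± 0.15 (adjusted p = 2.04e-08), and P1R3 from -0.65 to 0.90, a difference of 1.56 ± 0.20 (adjusted p = 5.2e-06). The wild type carried less of HAT2 and EXPA8 in far-red than in white light at 24 h (log2 -0.68 and -1.07), and pifq carried more (log2 0.61 and 0.62), each called.

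For IAA29 and GH9B8 the gap seen in white light was not called in far-red. IAA29 read 6.20, 6.19 and 6.16 in the wild type and 4.77, 5.02 and 4.65 in pifq at WL24, a difference of -1.37 ± 0.13 (adjusted p = 1.59e-08). At FR24 it stood above its WL24 level by 1.46 in the wild type and by 3.03 in pifq. The difference between the genotype comparisons was 1.57 ± 0.18 (adjusted p = 1.2e-06). Before far-red, in WL0, the mean levels of IAA29 were 4.63 in the wild type and 4.62 in pifq, against 7.64 and 7.84 at FR24. From WL0 to WL24 it rose by 1.55 in the wild type, while in pifq the change was 0.19 (adjusted p = 0.219). GH9B8, a glycosyl hydrolase of the endoglucanase family, differed by -1.51 ± 0.12 at WL24 (adjusted p = 4.47e-10) and by -0.19 ± 0.12 at FR24 (adjusted p = 0.379), with a difference of 1.33 ± 0.17 (adjusted p = 4.95e-06). Its wild-type level was 1.64 lower at FR24 than at WL24, near the low level of pifq.

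Among the negative differences between the lights, LHCB4.3 stood 0.61 above the wild type at WL24 (adjusted p = 0.000897) and 0.42 below it at FR24, a difference of -1.03 ± 0.16 (adjusted p = 0.000159). It rose in far-red by 1.91 in the wild type and by 0.88 in pifq. TRY differed by -0.99 ± 0.20 between the lights (adjusted p = 0.00316), ATSPS4F by -0.89 ± 0.20 (adjusted p = 0.00672) and CYP71B26 by -0.83 ± 0.17 (adjusted p = 0.00389). ATSPS4F was higher at FR24 than at WL24 by 1.58 in the wild type and by 0.68 in pifq. The plastid gene ndhG, a subunit of the NADH dehydrogenase-like complex, differed by -0.77 ± 0.22 (adjusted p = 0.0451), a call lost without any 1 array other than WT FR24 replicate 1, WT WL24 replicate 1 or pifq WL24 replicate 3 (adjusted p from 0.0571 to 0.106). AT2G04050 stood 3.29 higher at FR24 than at WL24 in the wild type. In pifq its levels in the 2 lights differed by 0.45 (adjusted p = 0.301). The difference between these responses was -2.84 ± 0.40 (adjusted p = 3.24e-05).

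**Figure D4:**
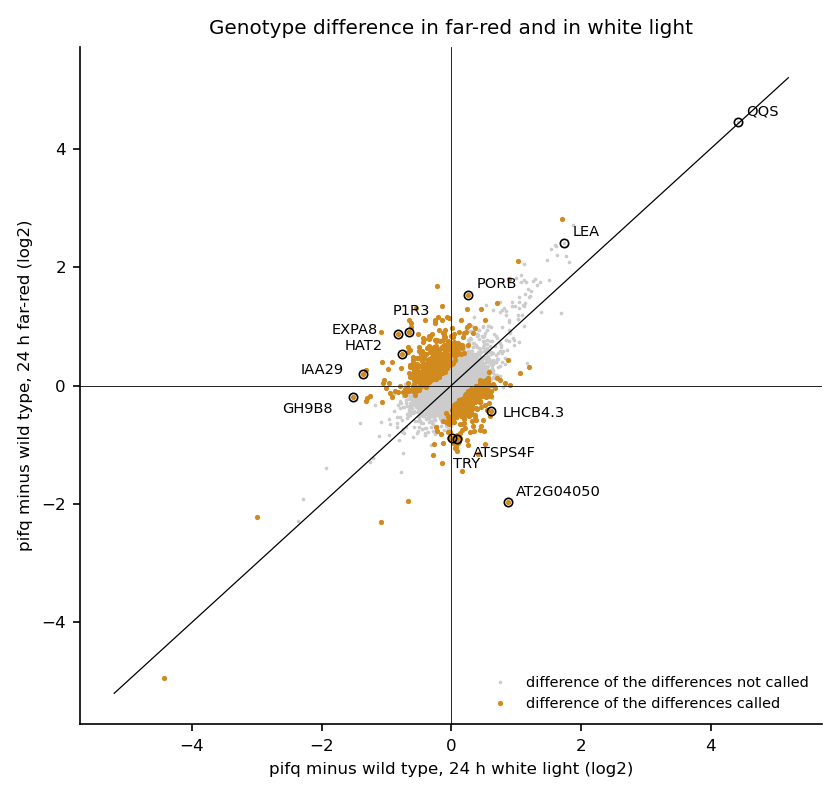
Log2 difference between pifq and the wild type at 24 h of far-red (y axis) against that at 24 h of white light (x axis), 1 point per probe set, with coloured points where the difference between both was called and a line of equal differences. QQS lies on the line near 4.4. LEA and PORB lie above it, and the difference between both was called for PORB but not for LEA. HAT2, EXPA8 and P1R3 lie in the upper left, below 0 in white light and above 0 in far-red.

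The probe sets with at least 2-fold differences at FR24 were then followed in the other 4 conditions, whose arrays entered none of the FR24 means but shared in the estimate of the spread behind the calls. Of the 78 that were higher, 59 (75.6%) were called higher at WL24 against 4.3% of all probe sets, 52 (66.7%) in WL0 against 1.24%, 54 (69.2%) in FR1 against 7.08% and 61 (78.2%) in FR3 against 5.47%. In all, 44 of the 78 were called higher in all other 4 conditions and 10 in none of them. Of the 21 that were lower, 10 were called lower at WL24 against 4.3% of all probe sets, 7 in WL0 against 0.431%, 10 in FR1 against 6.56% and 11 in FR3 against 4.47%. Of these 21, 6 were called lower in all other 4 conditions and 10 in none. The median level of the 78 was 6.0 in the wild type and 7.81 in pifq in WL0, and 6.46 and 7.48 at WL24. From WL0 to WL24, 38 of them rose and 20 fell in the wild type, against 24.5% and 23.6% of all probe sets. In pifq 22 rose and 26 fell, against 25.5% and 23.8%.

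**Figure D5:**
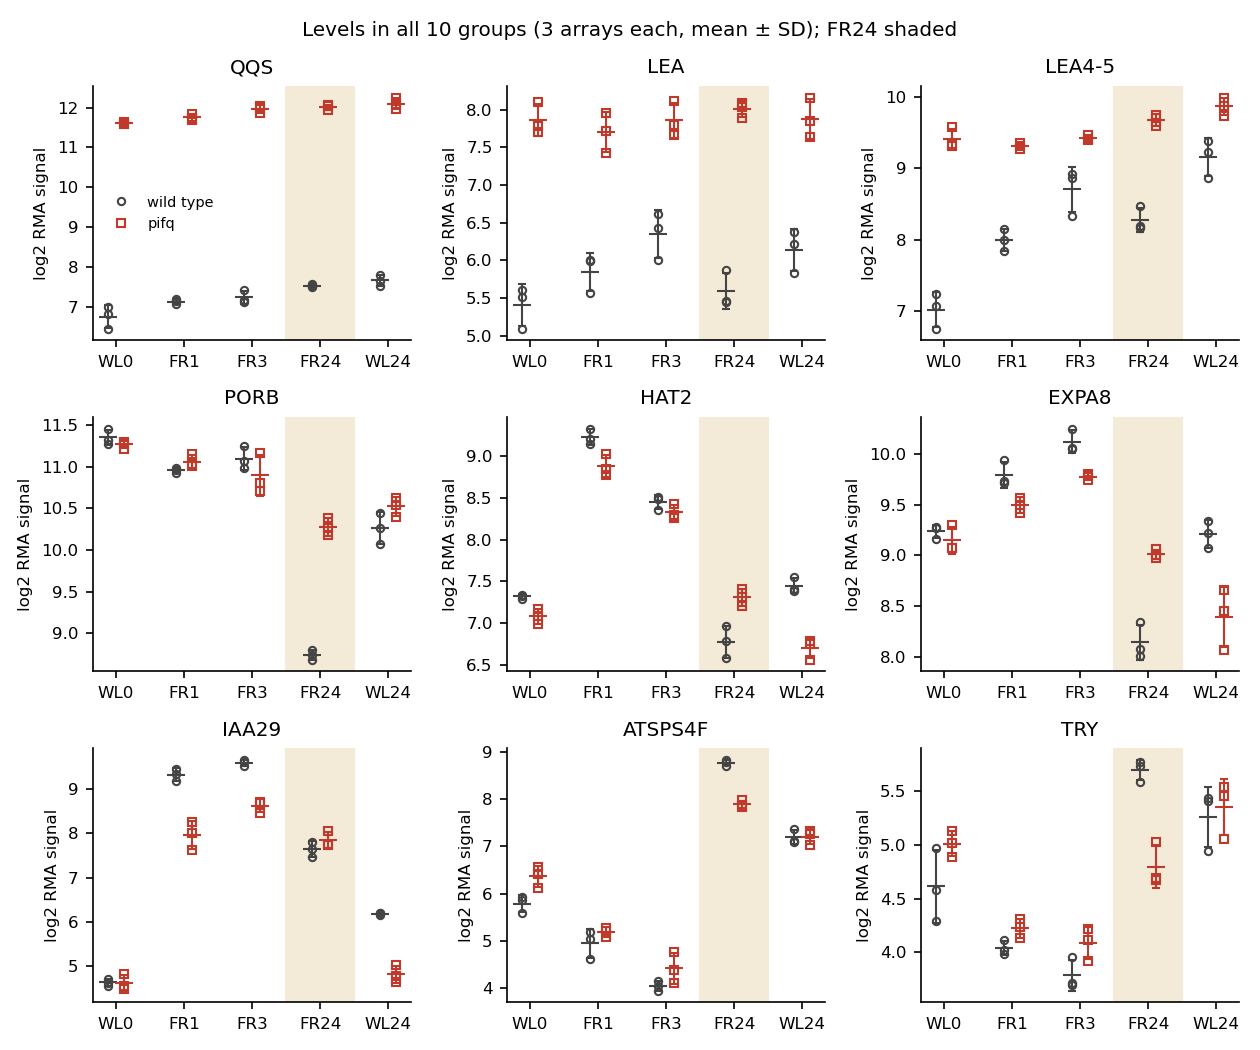
Log2 RMA signal (y axis) of 9 named genes in the 5 conditions (x axis) in both genotypes, each symbol 1 array, with mean ± SD of 3 arrays and FR24 shaded. QQS and the LEA genes are higher in pifq in every condition shown, PORB is low only in the wild type at FR24, and HAT2 and EXPA8 change order between FR24 and WL24.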

How the data were processed

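Expression was measured on 1-colour Affymetrix ATH1 arrays. The deposited values are log2 expression values that the authors made with RMA (version not given), per the submitters' processing notes. Values lay between 2.42 and 14.16, array medians between 5.55 and 5.64, and 0 pairs of arrays were identical. RMA's quantile normalization hides shifts that most transcripts share, and folds of the dimmest and brightest probe sets are understated. With no counts, 3 arrays per group limit the precision.

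Of 22810 probe sets, 64 controls were left out. With limma 3.58.1 (lmFit, eBayes) in R 4.3.3, 1 mean for each of 10 groups was estimated from all 30 arrays together, with 20 residual and 9.44 prior degrees of freedom. P-values are two-sided and Benjamini-Hochberg adjusted over 22746 probe sets, and calls have an adjusted p under 0.05. On simulated data for this comparison, run on 22746 probe sets, 90% of 1.5-fold and 100% of 2-fold changes were called, with 13 unchanged probe sets. The simulation gave each probe set the same normal spread in all groups, as the fit assumes. It thus does not show the recovery where the spread differs between groups.

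Genes were named where the platform annotation, updated through RefSeq, gave exactly 1 locus (503 probe sets had several genes and 8730 none). Named were the 12 greatest rises and falls with a symbol and arrays that did not overlap, the 3 greatest each way by locus alone, the 5 greatest differences between the lights each way among genes with a symbol, and up to 6 called members of each list (2 if none). Lists and members were chosen with earlier results of these data known. Replicate numbers did not pair the arrays: deviations of same-numbered arrays correlated at -0.03 to 0.08 between the genotypes at FR24, and at -0.07 to 0.19 over the other pairs of groups at 24 h.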

Additional observations from a re-analysis of the deposited data

Results flagged for a closer look

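For 19 named genes the difference between pifq and the wild type at 24 h of far-red departed from that at 24 h of white light by limma's test of the difference itself. The 9 positive departures, on the log2 scale, were those of EXPA8 (1.69), IAA29 (1.57), P1R3 (1.56), GH9B8 (1.33), HAT2 (1.29), PORB (1.28), EXPB3 (0.78), LEA4-5 (0.69) and LHCB4.2 (0.58). The 10 negative ones were those of AT2G31790 (-0.49), EXPA7 (-0.56), ndhG (-0.77), CYP71B26 (-0.83), ATSPS4F (-0.89), AT1G78720 (-0.90), TRY (-0.99), LHCB4.3 (-1.03), AT2G41730 (-1.56) and AT2G04050 (-2.84). EXPA7, a root hair expansin gene, stood 0.49 above the wild type at WL24 (adjusted p = 0.000893) and differed by -0.07 at FR24 (adjusted p = 0.744). Leaving out the third wild-type array at FR24 took its departure to -0.44 and ended the call (adjusted p = 0.0531). EXPB3, another expansin gene, was lower at FR24 than at WL24 by 1.19 in the wild type and by 0.42 in pifq.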

How the results depend on the processing

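Fitted on the arrays compared alone, the calls numbered 1225 at FR24, 572 at WL24 and 389 for the difference between them. With all 30 arrays they numbered 1891, 1957 and 854. Fewer arrays inform the spread in the smaller fit, and the reason for the drop, which was steepest at WL24, was not tested. With at least 2-fold required they numbered 99, 69 and 82. With the replicate block they were 1923, 1996 and 859, and as the numbers did not pair the arrays (2 of 6 FR24 arrays matched their own number best) this block has no basis in the design. Leaving out 1 array gave 1292 to 1643 at FR24, 1350 to 1763 at WL24 and 636 to 817 for the difference. A filter on mean level, an intensity trend, array weights and centring kept each count within 1.5 times. Of 54 named genes called at FR24, 43 kept the call in every alternative and 11 lost it in at least 1, and none changed direction. Of these, PSAE-1 (adjusted p = 0.125), HEME1 (0.163), LYC (0.108), UGT78D1 (0.0737) and GI (0.108) also lost it on the arrays compared alone, where RR16 (0.041), GID1C (0.0481) and ndhG (0.0377) gained one. RR16 gained it also with the block (0.039), the filter on mean level (0.0417), array weights (0.0302) and without pifq replicate 2 (0.0225). Of the 19 departures between the lights 16 kept the call, and LEA4-5, ndhG and EXPA7 (adjusted p up to 0.103) did not. The planned comparison of promoter motifs was not run, as no promoter sequences were used here.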

Other observations

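The greatest difference at FR24 belonged to a probe set that the annotation leaves without a gene, chosen after its values were seen. It read 9.22, 9.28 and 9.29 in the wild type and 4.23, 4.46 and 4.29 in pifq, 30.6-fold lower (log2 -4.94 ± 0.08, adjusted p = 3.03e-28), and differed by -4.44 at WL24 and -3.77 in WL0. The greatest rise of a probe set without a gene, also chosen after its values were seen, was 2.81 ± 0.23 (adjusted p = 3.09e-10) at FR24, 1.71 at WL24 and 2.54 in WL0.

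AT5G48490 and AT5G45670, loci without a symbol chosen after their values were seen, differed in far-red more than in white light, as PORB did. AT5G48490 had mean levels of 9.81 in the wild type and 11.49 in pifq at FR24, a difference of 1.68 (adjusted p = 7.73e-16), against -0.21 at WL24 (adjusted p = 0.0923), and the test of the difference between the lights gave 1.89 (adjusted p = 1.93e-12). AT5G45670 had 6.20 and 7.56, a difference of 1.35 (adjusted p = 1.71e-13), against -0.14 at WL24 (adjusted p = 0.314), with 1.49 between the lights (adjusted p = 4.27e-10).

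Genes of the plastid genome were taken up after the annotation was seen. Of 69 measured, 1 was called at FR24 by limma, lower in pifq, against 8.31% of all probe sets in either direction, with a median of -0.04 and a range from -0.47 (ndhK) to 0.57 (petL). At WL24, 3 were called, each lower in pifq, against 4.3% of all probe sets called lower there.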
